A study of Homo sapiens with 3 samples.

Results

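The genes described here are 10 immediate early genes: FOS, FOSB, FOSL1, JUN and JUNB, which encode subunits of the AP-1 transcription factor, ATF3, a related leucine zipper factor, the zinc finger factor gene EGR1, the orphan nuclear receptor gene NR4A1, and the early response genes IER2 and IER3. Their members were taken from the array platform's annotation as every probe set with exactly 1 gene symbol on this list, which gave 19 of the 41091 probe sets with 1 symbol and 10 of 19775 genes. JUN had 4 probe sets, EGR1, NR4A1 and ATF3 had 3 each, and the other 6 genes had 1 each.

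Immediate early genes are transcribed shortly after a cell meets serum, growth factors, cytokines or stress, without new protein synthesis. MAP kinases act on factors already bound at their promoters, among them serum response factor with its ternary complex partners and CREB, and the transcripts decay quickly. Fos and Jun proteins pair through leucine zippers to form AP-1, which drives genes of proliferation and invasion, while Jun proteins can also pair with themselves, which FOS does poorly. In colorectal cancer cells with active Ras signalling some of these genes are transcribed without a fresh stimulus.

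The study compared a colorectal cancer cell line after infection with 3 viruses, with 1 array for each. The control array came from cells with an empty vector, the LATS2 array from cells with full-length LATS2, a Hippo pathway kinase, and the LATS2N array from cells with residues 1 to 625 of LATS2, which end before the kinase domain. All sample labels name the line SW620, whereas the series' design text names SW480 and describes stable expression, so the line is given here as the labels state it. All cells were grown in medium with 10% serum, and the labels give neither the time between infection, feeding and harvest nor whether a line is a single clone. Each difference below is therefore between 1 array and 1 array, with no replicate check and no p-value.

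Values are probe set signals (linear intensities from MAS5, scaled alike on all arrays). Signals below a floor of 50.5, the median of all signals, were set to it before log2 ratios were taken. A difference was called when floored signals were at least 2-fold apart, and a ratio with 1 array below the floor is a bound, written "at least". The measure of error is the spread between probe sets of the same gene, given as a robust SD of the log2 ratio. For LATS2 against control this SD fell with brightness, from 0.30 at dimmer signals of 100 to 200 to 0.17 at 500 to 2000 and 0.11 at 2000 or more. It covers noise within arrays and not differences between cultures. Signals of different probe sets were compared only to pick the brightest ones and in the summed marker signals below.

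The arrays carried the markers of a colorectal epithelial line. Of 13 epithelial markers 10 exceeded the floor in the control, 11 in LATS2 and 12 in LATS2N, with the keratin gene KRT18 between 43054 and 47247 and KRT8 between 30042 and 33588. KRT20, GPA33 and CDX2 exceeded the floor on all 3 arrays but were dim, at 109 to 127, 78.0 to 80.9 and 141 to 194. CDX1, LGALS4 and CEACAM5 lay near or below the floor. Of 13 markers of leukocytes, fibroblasts, muscle and endothelium, 6 were above the floor on each array, and their summed signal was between 1153 and 1424 against 124955 to 132518 for the epithelial markers. PTPRC, CD3E, COL1A2, COL3A1, VWF and CDH5 were below the floor on all 3 arrays. CD79A, LYZ, COL1A1 and PECAM1 were above it on all 3, with COL1A1 at 325 in the control and 596 and 607 with the constructs. ACTA2, at least 2.04-fold above control with full-length LATS2, was the only one called against control, where 1.80% of all genes were called for LATS2. The part of these cells in the results was not tested. The 4 LATS2 probe sets did not show the construct: the brightest read 385, 377 and 409 for control, LATS2 and LATS2N, and unnamed values below keep this order of arrays.

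The sequences just upstream of 5 of these genes are printed because genes that differed in direction can be set beside each other by the elements known to serve immediate early induction. They are the last 120 bases before the start of the transcript, from RefSeq's table for GRCh38.p14, with capitals at letters that match a searched motif on either strand.

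FOS, chr14:75278708-75278827, plus strand: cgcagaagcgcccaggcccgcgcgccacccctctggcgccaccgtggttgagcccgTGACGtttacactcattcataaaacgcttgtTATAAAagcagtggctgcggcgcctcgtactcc

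FOSB, chr19:45467876-45467995, plus strand: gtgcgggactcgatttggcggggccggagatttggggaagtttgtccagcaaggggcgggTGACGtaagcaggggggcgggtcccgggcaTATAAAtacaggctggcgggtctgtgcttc

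JUNB, chr19:12791366-12791485, plus strand: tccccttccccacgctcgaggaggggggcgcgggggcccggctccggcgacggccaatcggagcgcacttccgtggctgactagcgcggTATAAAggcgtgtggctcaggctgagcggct

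JUN, chr1:58784048-58784167, minus strand: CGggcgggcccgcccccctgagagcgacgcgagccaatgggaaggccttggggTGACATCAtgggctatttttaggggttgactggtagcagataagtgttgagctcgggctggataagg

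EGR1, chr5:138465359-138465478, plus strand: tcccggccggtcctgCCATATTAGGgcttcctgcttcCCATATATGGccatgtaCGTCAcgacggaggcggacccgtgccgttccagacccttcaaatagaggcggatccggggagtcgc

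In a window of 250 bases before the start, on both strands, 8 of the 10 genes had a sequence to search, and FOSL1 and IER3 had none. Within these 250 bases the CArG box, the core of the serum response element, matched in EGR1 alone of the 8, at 2 places. It matched in 1.16% of all 35093 windows. Bases further upstream were not searched, so a gene without a match here, FOS included, may hold the element there. The letters TGACG, the core shared with the full cAMP response element TGACGTCA, matched in FOS, FOSB, JUN, JUNB, EGR1 and IER2 and in 21.2% of all windows. TGACGTCA itself matched in none of the 8 and in 1.65% of all windows. TGACATCA, a variant of the AP-1 element known from the JUN promoter, matched in JUN and ATF3 and in 2.37% of all windows, and the AP-1 element TGACTCA in none of the 8 and in 4.20%. The EGR element GCGNGGGCG matched in EGR1 and in 8.41%, further upstream than the stretch shown. TATAAA matched in FOS, FOSB, JUNB and ATF3 and in 10.7% of windows. TGACG overlaps TGACGTCA, and these matches describe letters and not occupied sites.

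**Figure D1:**
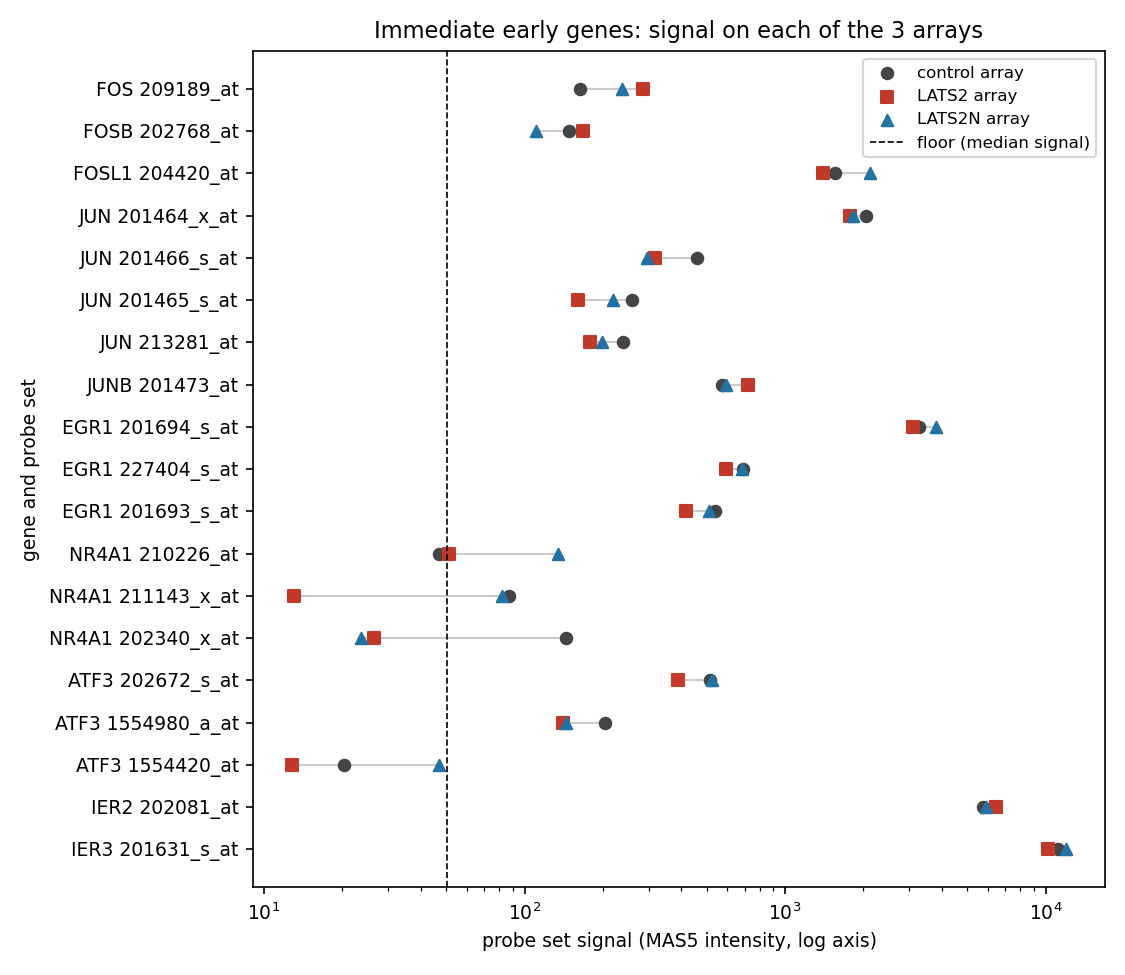
Signal of each of the 19 probe sets (rows) on the control (circle), LATS2 (square) and LATS2N (triangle) arrays, on a log axis of MAS5 intensity, with the floor of 50.5 as a dashed line. The JUN probe sets were all brightest on the control array, while the 3 NR4A1 probe sets each had a different order.

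Among the Fos genes, FOS was higher on both construct arrays than on control, without reaching the 2-fold call. FOS encodes the founding Fos subunit and read 163 with the empty vector, 285 with full-length LATS2 and 236 with LATS2N. The log2 ratio was 0.81 for LATS2 (1.75-fold), which is 2.74 times the spread SD at this brightness, and 0.53 for LATS2N (1.45-fold), 1.80 times the SD. LATS2 and LATS2N differed by 0.28, or 1.24 times the SD, so only LATS2 and control stood more than 2 spread SDs apart. In such bulk RNA, fewer cells expressing a gene and less of its RNA per cell cannot be told apart. Among the 1296 genes of similar brightness, the central 90% of LATS2 ratios ran from -0.59 to 0.81, and FOS lay at the upper edge, inside it.

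FOSB, a Fos protein of similar build, read 148 with the empty vector, 168 with full-length LATS2 and 111 with LATS2N. It was thus highest with full-length LATS2 and lowest with the fragment. The log2 ratios were 0.17 for LATS2 and -0.42 for LATS2N against control, both within 2 spread SDs, and 0.60 for LATS2 against LATS2N (1.51-fold), 2.03 times the SD.

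FOSL1, which encodes FRA1, a Fos subunit linked to invasion and kept high by ERK signalling, followed the opposite order. It read 1550 with the empty vector, 1395 with full-length LATS2 and 2110 with LATS2N. Control and LATS2 were close, with a log2 ratio of -0.15 or 0.89 times the spread SD. LATS2N stood above both, by 0.45 against control (1.36-fold) and by 0.60 against LATS2 (1.51-fold), which are 3.09 and 4.17 times the SD. FOSL1 was the only one of the 9 genes above the floor on both arrays that lay outside the central 90% of ratios for its brightness in LATS2N against control (-0.36 to 0.36 over 3723 genes).

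Of the Jun genes, JUN was lower on both construct arrays by every one of its 4 probe sets, none of them by 2-fold. JUN encodes the main partner of Fos proteins and can bind its own promoter. Its probe set 201464_x_at read 2050 with the empty vector, 1782 with full-length LATS2 and 1825 with LATS2N. The probe set 201466_s_at read 459, 317 and 294 in the same order of arrays. For 201465_s_at the signals were 258, 161 and 218, and for 213281_at they were 239, 178 and 199. Control was highest in each of the 4, while the order of LATS2 and LATS2N varied.

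Over these 4 probe sets the log2 ratio for LATS2 against control ran from -0.68 to -0.20, with a mean of -0.46 ± 0.20 (SD, n = 4 probe sets of 1 gene on the same arrays). For LATS2N against control it ran from -0.64 to -0.17, with a mean of -0.33 ± 0.21 (SD, n = 4 probe sets). Both comparisons use the same control array, so a high control reading would lower both. Of 586 genes with 4 probe sets above the floor on all arrays, 6.48% were lower by all 4 in both comparisons, and 15.3% of 609 were so for LATS2 alone. The brightest JUN probe set gave the smallest difference in both comparisons. Suffixes mark possible shared targets for it and for every other JUN probe set except 213281_at. The log2 ratios of 213281_at were -0.42 for LATS2 and -0.26 for LATS2N against control. Between LATS2 and LATS2N the mean was -0.13 ± 0.23 (SD, n = 4 probe sets), with 1 of 4 above 0.

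JUNB, a Jun protein that restrains growth in some settings, read 572 with the empty vector, 722 with full-length LATS2 and 594 with LATS2N. The LATS2 array was the high one, by a log2 ratio of 0.34 against control (1.26-fold, 1.97 times the spread SD) and 0.28 against LATS2N, also 1.97 times. Control and LATS2N differed by 0.05, or 0.37 times the SD. JUNB and FOS, whose upstream sequences both hold TATAAA, shared the order control, LATS2N, LATS2 from low to high. FOSB also holds TATAAA and had another order, and IER2, with no such match in its window, had the same order as FOS. Whether TATAAA bears on the order of the arrays was not tested.

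ATF3, a stress-induced leucine zipper factor that acts mostly as a repressor, had probe sets that agreed for LATS2 and not for LATS2N. The brightest, 202672_s_at, read 516 with the empty vector, 389 with full-length LATS2 and 526 with LATS2N. The probe set 1554980_a_at read 204, 141 and 144, and 1554420_at was below the floor on every array. LATS2 was lower than control by both measured probe sets, with log2 ratios of -0.41 and -0.53, each under 2 spread SDs. For LATS2N the ratios were 0.03 and -0.50, so no direction can be given for it.

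EGR1, the serum-induced factor whose upstream sequence holds the CArG boxes shown above, was lowest on the LATS2 array by all 3 of its probe sets. The brightest, 201694_s_at, read 3258 with the empty vector, 3097 with full-length LATS2 and 3793 with LATS2N. The probe set 227404_s_at read 692, 592 and 683, and 201693_s_at read 540, 415 and 513. Against LATS2N, LATS2 was lower by a mean log2 ratio of -0.27 ± 0.05 (SD, n = 3 probe sets of 1 gene), from -0.30 to -0.21. Of 1527 genes with 3 probe sets above the floor, 16.4% were lower by all 3 in that comparison.

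Against control the EGR1 ratios for LATS2 ran from -0.38 to -0.07, with a mean of -0.23 ± 0.15 (SD, n = 3 probe sets), and none exceeded 2 spread SDs. For LATS2N the brightest probe set was above control by 0.22 (1.16-fold, 2.60 times the SD) and the others were at -0.02 and -0.08. The rise of EGR1 with LATS2N was thus seen by 1 probe set of 3.

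NR4A1, an orphan nuclear receptor induced by many signals, was the only gene of the 10 called in any comparison, and its probe sets contradicted each other. The probe set 210226_at, which represented the gene, read 46.9 with the empty vector, 51.4 with full-length LATS2 and 134 with LATS2N. LATS2N was the high array here, at least 2.66-fold above control and 2.62-fold above LATS2. The probe set 202340_x_at read 144, 26.4 and 23.5, so that control was the high array, at least 2.85-fold above LATS2 and above LATS2N. The third, 211143_x_at, read 87.2, 13.1 and 82.0, with LATS2 the low array, at least 1.73-fold below control and at least 1.62-fold below LATS2N.

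All NR4A1 signals were below 150 and each probe set crossed the floor between arrays. By the median over probe sets the log2 ratio for LATS2N against control was -0.09, opposite in sign to the call. LATS2 was below LATS2N by both probe sets measured in that comparison, with log2 ratios of -1.39 and -0.70, the second a bound. The suffixes of 202340_x_at and 211143_x_at mark possible shared targets, and that of 210226_at does not. Without such probe sets NR4A1 thus kept its log2 ratios of 1.41 for LATS2N against control, a bound, and -1.39 for LATS2 against LATS2N. Which part of the transcript each probe set reads is not known here.

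The early response genes IER2 and IER3 differed by at most 1.17-fold in the 3 comparisons. IER2, a nuclear protein gene, read 5745 with the empty vector, 6438 with full-length LATS2 and 5886 with LATS2N. Its log2 ratios were 0.16 for LATS2 and 0.03 for LATS2N against control, neither beyond 2 spread SDs. IER3, a regulator of cell survival and a target of NF-kB, read 11152, 10225 and 11980. Its ratios were -0.13 and 0.10 against control, also within 2 SDs, while LATS2 lay below LATS2N by -0.23 (1.17-fold, 2.43 times the SD).

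**Figure D2:**
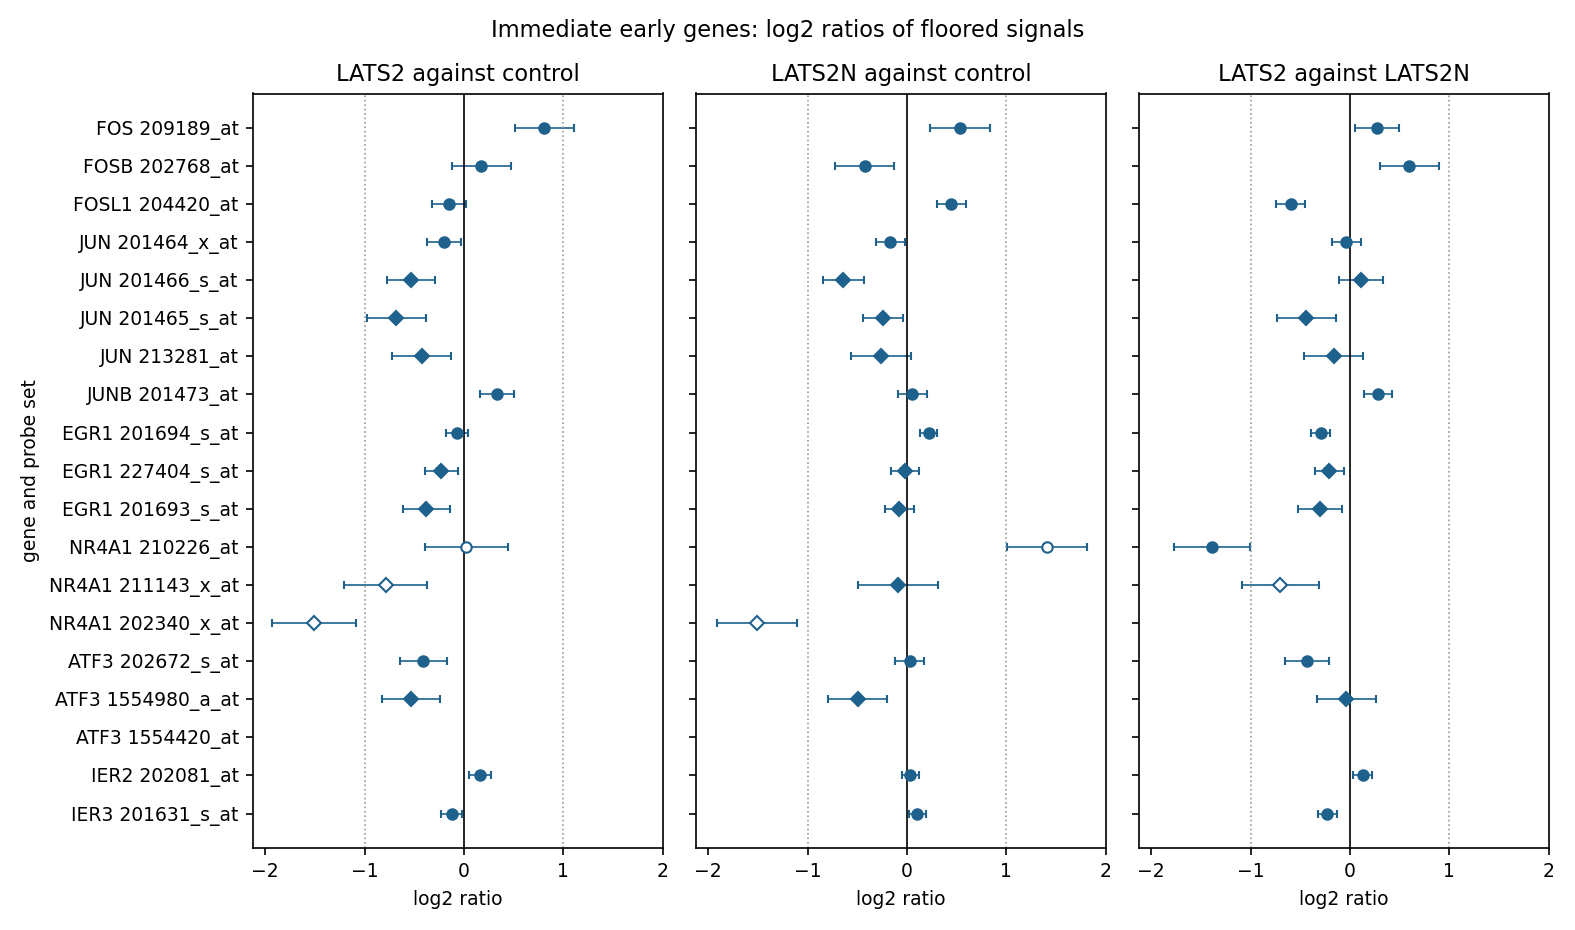
Log2 ratio (horizontal axis) of each probe set (rows) in the 3 comparisons, with bars of 1 spread SD between probe sets at that brightness and dotted lines at 2-fold. Circles are the probe sets that represent a gene, diamonds the others, and open symbols are bounds. All 4 JUN points lie left of 0 in both comparisons with control, and the NR4A1 points lie on both sides.

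Taken as a group, the 10 genes did not move one way with full-length LATS2. In LATS2 against control none of the 10 genes was called, where 1.80% of 13186 measured genes were, and 1 of 18 measured probe sets was, where 2.18% of all were. Of the 10 genes, 5 were above and 5 below 0, with a median log2 ratio of -0.02 against 0.03 over all genes, which turned to 0.03 with no floor. Of the 18 probe sets 13 were below 0, where 48.5% of all probe sets were, and 11 of the 13 belong to JUN, EGR1, ATF3 and NR4A1. Only FOS exceeded 2 spread SDs, 1 gene of 10, where 16.6% of all genes did.

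In LATS2N against control 1 gene of 10 was called, NR4A1, where 1.51% of 13245 genes were, and 2 of 18 probe sets were, both of NR4A1 and in opposite directions, where 1.70% of all were. Of the 10 genes 8 were above 0, with a median of 0.08 against 0.02 over all genes, 53.6% of which were above 0. Genes beyond 2 spread SDs were FOSL1, EGR1 and NR4A1, 3 of 10, where 17.0% of all genes were.

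Full-length LATS2 was set against LATS2N to see which genes differ between the kinase and the fragment without it, leaving the control array out. Here 1 gene of 10, NR4A1, was called, in the lower direction, where 1.59% of 13175 genes were called, and 1 of 17 probe sets was, where 1.79% of all were. The median was -0.13 against 0.01 over all genes. It turned to 0.05 without probe sets of possible shared targets, which leaves out EGR1 and IER3. FOSL1, EGR1, NR4A1 and IER3 were lower and FOSB higher on the LATS2 array by more than 2 spread SDs, 5 of 10 genes, where 19.3% of all genes were. Of these, FOSL1, EGR1 and NR4A1 also lay outside the central 90% of genes of their brightness, all lower with LATS2. For EGR1 this rests on the brightest probe set. Its others, at -0.21 and -0.30, lay inside that range and within 2 spread SDs.

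**Figure D3:**
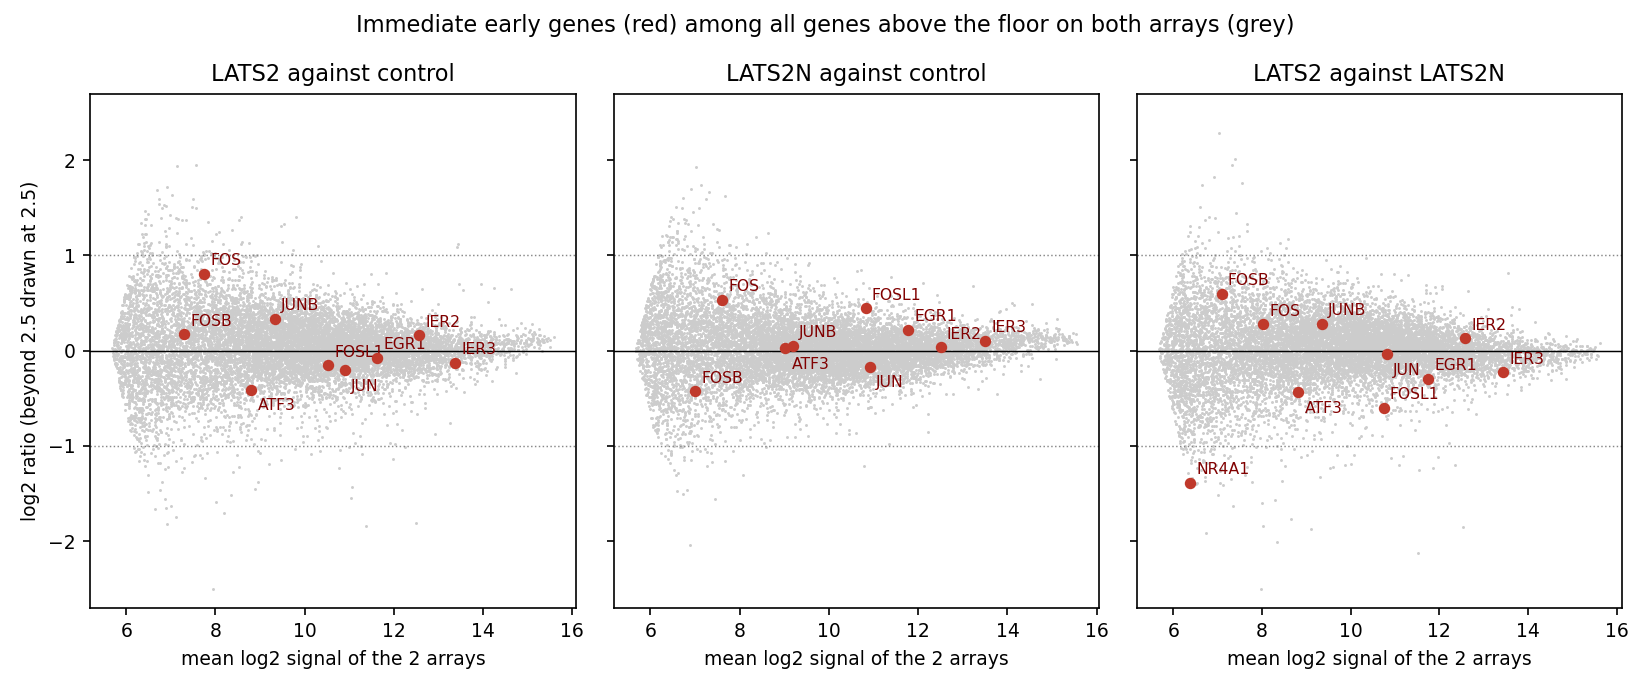
Log2 ratio against the mean log2 signal of the 2 arrays compared, for all genes above the floor on both (grey) and the immediate early genes (red), with dotted lines at 2-fold. In LATS2 against LATS2N the points of FOSL1, EGR1 and NR4A1 lie below the central 90% of genes of their brightness, EGR1 only narrowly. In LATS2 against control the red points lie on both sides of 0. NR4A1 is missing from the comparisons with control because its control signal was below the floor.

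By the order of the 3 arrays, 9 of the genes could be placed, NR4A1 being below the floor on the control array. ATF3, EGR1, FOSL1 and IER3 had the order LATS2, control, LATS2N from low to high, 4 of 9 genes, though 2 of the 3 EGR1 probe sets and 1 of the 2 measured for ATF3 had control highest. That order was held by 15.6% of 11534 genes above the floor on all arrays. FOS, IER2 and JUNB had the order control, LATS2N, LATS2, 3 of 9, held by 22.0% of all genes. These orders rest on the brightest probe set, and several neighbours in them, such as control and LATS2 for FOSL1 or control and LATS2N for JUNB, did not differ beyond the spread.

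Other members of the families were described from lists of the pathway. Of 14 further AP-1 leucine zipper factors, 12 had a probe set, and 11 were measured in LATS2 against control and 10 in LATS2N against control. None was called in any comparison. Of all genes, 1.80% and 1.51% were called against control and 1.59% in LATS2 against LATS2N, so none called is near these shares. The medians of this list were -0.05 for LATS2 and 0.10 for LATS2N. MAF, a large Maf factor, had the largest difference in both, reading 160 with the empty vector, 90.7 with full-length LATS2 and 89.2 with LATS2N, with log2 ratios of -0.81 and -0.84. Both of its measured probe sets were lower for LATS2, and 1 of 2 for LATS2N. The bright members varied less: ATF4, the effector of the amino acid stress response, read 17541, 16852 and 18250, and JUND, the Jun protein least tied to stimulation, read 6009, 6832 and 5691.

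Of 7 other EGR and NR4A factors and NAB corepressors, 6 had a probe set and 5 were measured. NAB2, a corepressor that EGR1 induces and that limits EGR1 in turn, was called in LATS2N against control. It was 1 of 5 measured genes, where 1.51% of all genes were called. It read 120 with the empty vector, 190 with full-length LATS2 and 288 with LATS2N, which is 2.41-fold higher for LATS2N and 1.58-fold higher for LATS2. The brightest probe sets of NAB2 and EGR1 were thus both highest on the LATS2N array, but NAB2 was also above control on the LATS2 array, where EGR1 was not. NAB2 has 2 probe sets, and the dimmer exceeded the floor on the LATS2 array alone. It put LATS2 above LATS2N, and it was not measured in LATS2N against control. The related corepressor NAB1 read 2630, 2963 and 2947, and EGR4 read 281, 245 and 241.

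Of 23 other early response genes 22 had a probe set, and 1 of the 21 measured was called in LATS2 against control, where 1.80% of all genes were. CCN1, a secreted matrix protein gene induced by serum and by YAP, was 2.04-fold higher on the LATS2 array (136 against 66.8) and read 97.6 on the LATS2N array. The order of its arrays was that of FOS by this probe set, but only 1 of 2 probe sets put LATS2N above control. The medians of this list were 0.10 for LATS2 over 21 measured genes and 0.11 for LATS2N over 20. MYC read 24338 with the empty vector, 28341 with full-length LATS2 and 28423 with LATS2N, and PHLDA1 read 11421, 12208 and 12989.

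Regulators of these genes were also read from the same arrays. Of 12 dual-specificity phosphatase and Sprouty genes, which damp MAP kinase signalling, none was called in any comparison. Of all genes, 1.80% were called for LATS2 and 1.51% for LATS2N against control, and 1.59% for LATS2 against LATS2N. With so few genes in a list, none called is near these shares. The medians were 0.02 for LATS2 and 0.00 for LATS2N. DUSP6, an ERK phosphatase, was higher on the LATS2 array by 3 of 3 probe sets, reading 2524 with the empty vector, 3609 with full-length LATS2 and 2570 with LATS2N (log2 ratio 0.52 for LATS2). SPRED2 had the largest difference for LATS2N, at -0.25, and SPRY2 read 2492, 2715 and 2672. Of 21 upstream kinases and promoter-bound factors 18 had a probe set and none was called, beside the same shares of all genes. Their medians were -0.05 and -0.06. RPS6KA5, the kinase MSK1 that acts on CREB and histones at immediate early genes, read 245, 474 and 257. By this brightest probe set it was 1.94-fold above control on the LATS2 array, and 2 of 2 measured probe sets had that direction. RPS6KA3, the kinase RSK2, was lower on both construct arrays by 2 of 2 probe sets, reading 1306, 927 and 768. The brightest of this list were MAP2K1, at 4359, 4295 and 4565, and MAPK9, at 2337, 2496 and 2417. SRF, named here for its binding to the CArG box and outside the rule for naming genes, read 324, 358 and 262.

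Genes known to respond to AP-1 lay mostly below control on the LATS2 array. Of 16 genes all had a probe set and 10 were measured in LATS2 against control. Of these 8 were below 0, with a median of -0.46, where 45.2% of all genes were below 0 with a median of 0.03. Only 1 was called, in the lower direction, where 1.80% of all genes were called. In LATS2N against control 6 of 9 were above 0, where 53.6% of all genes were, and the median was 0.14. None was called there, where 1.51% of all genes were. Several of these genes had been seen to differ in earlier results of these data and they answer to other factors too, so the list is no independent evidence about AP-1.

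VEGFA, the angiogenic growth factor, was the called gene, reading 1063 with the empty vector, 481 with full-length LATS2 and 779 with LATS2N. The call rests on its brightest probe set, and 3 of 4 probe sets had the same sign in LATS2 against control. PLAU, the urokinase protease gene, read 105, 55.4 and 208, and CXCL8, a chemokine gene, read 1014, 680 and 1547. Both were called lower in LATS2 against LATS2N by the brightest probe set, by 3.76-fold and 2.27-fold. For each gene 2 of 2 probe sets were below 0, whatever their size. PLAU and CXCL8 were 2 of 10 measured genes of this list, where 1.59% of all genes were called. TIMP1, a protease inhibitor, read 1604, 1124 and 1747, and the cyclin gene CCND1 read 4513, 4142 and 3665. The order LATS2, control, LATS2N from low to high, that of FOSL1 and of 1 of the 3 EGR1 probe sets, was held by CD44, CXCL8, PLAU, PLAUR and TIMP1, 5 of 9 genes that exceeded the floor everywhere, and by 15.6% of all genes. LATS2N exceeded control by only 0.15 for CD44, 0.14 for PLAUR and 0.12 for TIMP1, where the spread SD at this brightness was 0.14. For CD44 only 5 of 8 measured probe sets had that sign.

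**Figure D4:**
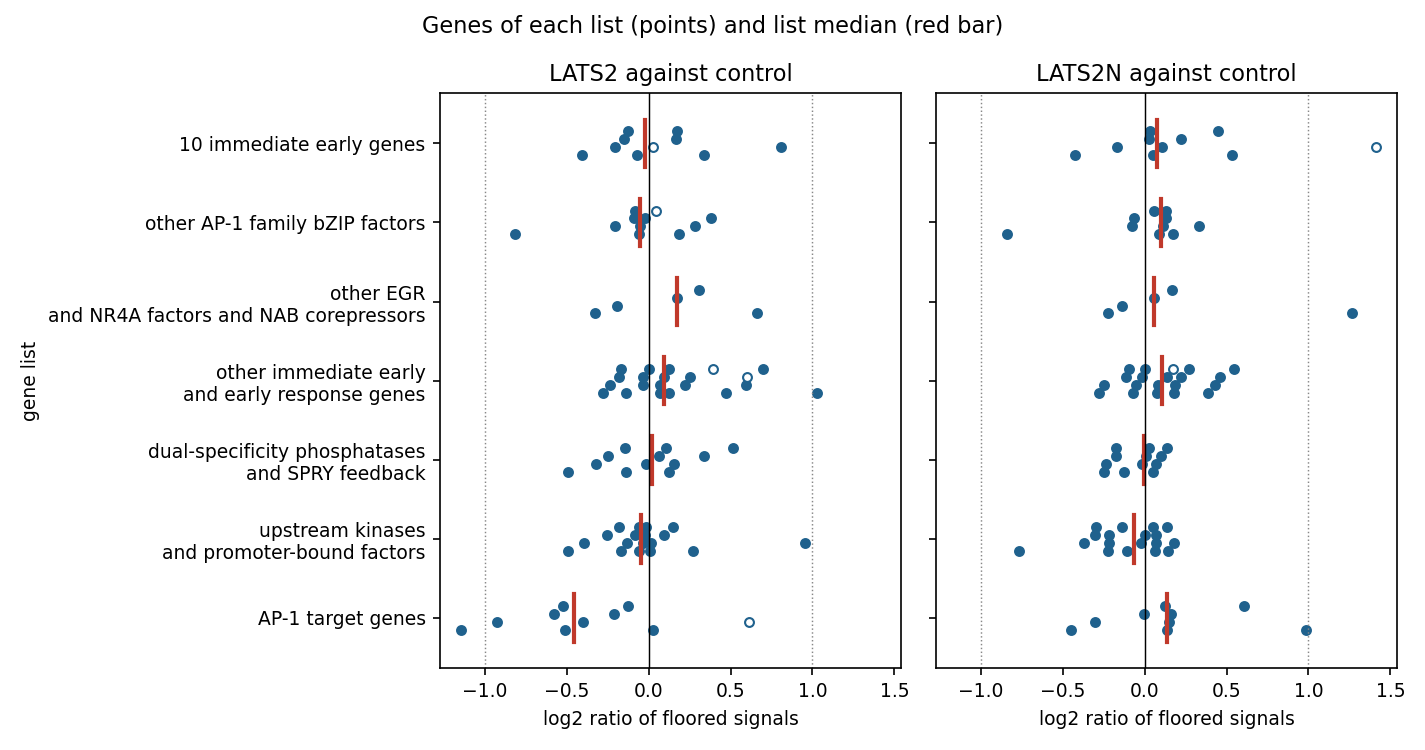
Log2 ratio of floored signals (horizontal axis) for the measured genes of each list (points, open where the ratio is a bound) with the list median as a red bar, for each construct against the same control array. The median of the AP-1 target genes lies at -0.46 for LATS2 and 0.14 for LATS2N, while that of the 10 immediate early genes lies at -0.02 and 0.08.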

How the data were processed

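The deposited values are linear intensities per probe set, which the submitters' processing notes credit to MAS5, with version and settings not given in the sources used here. Trimmed by 2% at either end, every array averaged 500.1, so the arrays share 1 scale. No detection calls were used. Gene symbols came from the platform annotation, updated through gene identifiers to RefSeq GRCh38.p14, which matched 41037 of 41091 probe sets with 1 symbol. Of several probe sets for a gene, the one brightest by mean log2 signal stood for it.

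Ratios and calls were computed on the whole table with Python 3.11.15 and pandas 2.3.3 and tested on simulated data. A gene was measured where 1 of the arrays compared reached the floor. The spread between probe sets came from the brightest pair of each gene, with pairs binned by their dimmest signal. With 1 array per group no test was made, and the number of arrays limits the precision. Named are the 10 genes on every array and, of each other list, every called member, the largest difference of each construct from control and up to 2 of the brightest members. PTPRC and other defining markers, SRF and members listed by order are named outside this rule. The members and lists were chosen with earlier results of these data known. Alternatives were the floor, the probe set summary, probe sets with shared targets, scaling and the size of the call.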

Additional observations from a re-analysis of the deposited data

How the results depend on the processing

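No paired analysis was possible because each group has 1 array, and for the same reason no array could be left out. The counts of called members are small and changed with the floor and the probe sets used. With the floor at the 25th percentile, the probe sets called were 2 in LATS2 against control and 3 in LATS2 against LATS2N, and with no floor 2 and 2. Calls over all genes moved with them, from 1.80% and 1.59% to 9.98% and 9.76% at the 25th percentile and 6.61% and 5.88% with no floor. With the floor at the 75th percentile, where 7 genes were measured, no member gene or probe set was called in any comparison (0 in each), and 0.342% and 0.243% of all genes were in LATS2 against control and against LATS2N. With the median over probe sets, 0 genes were called in LATS2N against control and 0 in LATS2 against LATS2N. Of all genes, 0.789% and 0.824% were called. The NR4A1 log2 ratio for LATS2N against control turned to -0.090. The median over probe sets counts a probe set below the floor on both arrays as a log2 ratio of 0. Over its 2 measured probe sets, the NR4A1 median for LATS2 against LATS2N was -1.04, which passes the 2-fold size. That lost call therefore rests on counting the unmeasured probe set as 0. Without probe sets of possible shared targets, 0 probe sets were called in LATS2 against control and 1 in LATS2N against control, and the median of the members in LATS2 against LATS2N was 0.046 over 8 genes. At 1.5-fold, 1 gene and 4 probe sets were called in LATS2 against control, and 3 genes and 4 probe sets in LATS2 against LATS2N. Of all genes, 10.3% and 9.34% were called. Under these alternatives the shares were taken over genes alone, so the probe set counts have no matching share. The median of the members in LATS2 against control, near 0, turned to 0.03 with the floor at the 25th percentile or none and to 0.09 without probe sets of possible shared targets. Centring the ratios and quantile normalisation changed no count of member calls by over 1.5 times and moved no member gene's ratio beyond the spread. The 4 genes with several probe sets could change with the probe set summary. Under the median over probe sets 7 of their ratios moved beyond the spread and 4 lost or changed their sign. Among these, ATF3 in LATS2N against control stood at 0 with its unmeasured probe set counted and at -0.23 without it. NR4A1 was the only member gene represented by a probe set with a signal below the floor.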
